A study of Homo sapiens with 34 samples.

Results

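The genes described here write, copy and erase cytosine methylation in DNA: the methyltransferases DNMT1, DNMT3A and DNMT3B, the methylation-copying cofactor UHRF1, and the dioxygenases TET1, TET2 and TET3. They were taken by symbol from the RNA-seq table, and by the same Ensembl identifiers from the table of RNA immunoprecipitation (RIP). All 7 were found, of 28071 genes in the RNA-seq table and 25035 in the RIP table. The cells were of LNCaP, an established line from human prostate cancer, in 2 forms. The androgen-independent form (AI) was kept in RPMI1640 with serum that charcoal had stripped of steroids, and the androgen-dependent form (AD) in RPMI1640. The series was built around EZH2, the enzyme that places the repressive histone mark H3K27me3, and held 34 samples: 12 RNA-seq, 8 RIP, 7 chromatin immunoprecipitation (ChIP) and 7 input samples. RNA-seq covered, in AI and in AD cells, siEZH2 (24 h after Lipofectamine 2000 transfection of siRNA against EZH2), mock (the same with a mock siRNA) and untreated cells, with 2 libraries a group. RIP used an EZH2 antibody or control IgG on ultraviolet-crosslinked AI and AD cells, with 2 libraries a group. ChIP used antibodies to EZH2 (1 AI sample, 2 AD samples) and to H3K27me3 (2 AI and 2 AD samples). The treatment protocol names LNCaP/abl, an androgen-independent line, as the cells transfected. Libraries titled AD carry siRNA names too, and the titles were followed. Nothing in the labels says that replicates came from separate cultures, so p-values reflect the spread among these libraries only, and it may be technical.

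In mammals, DNMT3A and DNMT3B set new methyl groups on CpG sites, and DNMT1 copies them to the daughter strand after DNA replication. UHRF1 binds the hemimethylated sites that replication leaves and brings DNMT1 to them. The TET enzymes oxidise methylcytosine, which opens the way to its removal, and in prostate cancer promoter methylation is known for silencing genes such as GSTP1.

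The deposited RNA-seq and RIP values are RPKM, read counts divided by gene length and by library size, so they can be set side by side between genes. Library depth, estimated from the steps between low values, was 7.54 to 57.8 M reads (M, mega) in RNA-seq, and the 8 transfected libraries (7.54 to 12.7 M) were shallower than the 4 untreated ones (17.4 to 57.8 M). Mitochondrially encoded transcripts took 2.1% to 4.07% of the RPKM in transfected libraries, against 18.36% to 33.45% in untreated ones. Transfection and these library differences cannot be told apart. All 10 luminal prostate markers were above 0 in every RNA-seq library. The 9 stromal, endothelial or blood markers summed to 1.68 to 6.08 RPKM, with 1 to 6 of them at 0. The 4 basal markers summed to 0.37 to 1.32 RPKM in AI and 3.99 to 5.1 RPKM in AD libraries, and the 4 neuroendocrine markers to 35.5 to 51.6 RPKM in transfected libraries. EZH2, the siRNA target, had 3.6 and 4.33 RPKM in siEZH2 AI libraries, against 7.07 and 5.44 RPKM in mock AI libraries (log2 change -0.59, limma adjusted p = 0.126). In AD cells it had 11.52 and 10.73 RPKM with siEZH2 and 10.95 and 12.48 RPKM with mock siRNA (log2 change -0.07, limma adjusted p = 1), so neither EZH2 difference passed the test.

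Promoters of DNMT1, UHRF1 and TET1 are printed here, each as 300 bases of RefSeq GRCh38.p14 sequence. Each runs from 250 bases before to 50 bases after a transcription start, read in the direction of the gene. DNMT1 and UHRF1 are shown because their RNA levels moved together across the libraries, and TET1 because deposited peaks covered or flanked its start. The sequences are DNMT1 at chr19:10194904-10195203 (minus strand), UHRF1 at chr19:4909251-4909550 and chr19:4909894-4910193 (plus strand), and TET1 at chr10:68560087-68560386 (plus strand).
DNMT1: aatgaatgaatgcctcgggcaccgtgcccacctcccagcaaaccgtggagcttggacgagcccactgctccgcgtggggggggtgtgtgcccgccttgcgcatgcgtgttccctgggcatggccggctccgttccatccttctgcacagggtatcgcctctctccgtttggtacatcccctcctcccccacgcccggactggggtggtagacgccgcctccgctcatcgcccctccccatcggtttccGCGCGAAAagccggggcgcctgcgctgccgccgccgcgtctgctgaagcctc
UHRF1, upstream: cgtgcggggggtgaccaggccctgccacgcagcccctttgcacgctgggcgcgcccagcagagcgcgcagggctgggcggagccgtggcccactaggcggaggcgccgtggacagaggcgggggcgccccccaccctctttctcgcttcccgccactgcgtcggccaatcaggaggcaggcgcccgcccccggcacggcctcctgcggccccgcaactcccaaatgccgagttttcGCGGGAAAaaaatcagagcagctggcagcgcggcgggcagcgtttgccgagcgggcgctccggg
UHRF1, downstream: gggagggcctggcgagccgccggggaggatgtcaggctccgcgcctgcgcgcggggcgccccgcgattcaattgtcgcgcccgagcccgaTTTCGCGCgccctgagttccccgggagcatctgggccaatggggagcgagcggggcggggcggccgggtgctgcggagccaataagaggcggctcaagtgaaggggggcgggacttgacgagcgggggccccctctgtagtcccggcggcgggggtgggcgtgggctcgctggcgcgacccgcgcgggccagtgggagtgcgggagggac
TET1: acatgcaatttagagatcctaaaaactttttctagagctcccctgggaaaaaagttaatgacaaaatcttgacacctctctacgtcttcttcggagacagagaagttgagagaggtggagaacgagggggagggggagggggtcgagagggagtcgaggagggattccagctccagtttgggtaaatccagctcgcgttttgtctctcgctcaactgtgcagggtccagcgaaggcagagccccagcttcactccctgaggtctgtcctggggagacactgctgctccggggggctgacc
Capitals mark the E2F words found on either strand, out of 4 searched: TTTCCCGC, TTTCGCGC, TTTGCCGC and TTTGGCGC, versions of the sequence known for the E2F factors of S phase transcription. A match describes the letters and is not shown to be a bound site. DNMT1 held 1 such word, which began at position -2 from its start. Each printed UHRF1 promoter held 1, beginning at -14 and -160, and no 2 words overlapped. Another UHRF1 promoter, farther downstream at chr19:4910117-4910416 and not printed, held 0. The 3 promoters with a word were among 18 RefSeq promoters of the 7 genes, and 1164 of all 35116 promoters (3.31%) held one. No word was found in the windows available for DNMT3A, DNMT3B, TET1, TET2 or TET3. The 5' ends of DNMT3B (20:32762385), TET3 (2:73983631) and UHRF1 (19:4903080) had no window and were not searched. For DNMT3B the only window was 20:32779602-32779901, at a start inside the gene. Promoters also differed in CpG sites, the targets of these enzymes. The printed DNMT1 promoter held 30 and the UHRF1 promoters 36 and 40, while the TET1 promoter held 10, against a median of 14 over all promoters. Of the promoters not printed, those of DNMT3A held 18 to 46, TET3 45 and 33, and TET2 13 and 35. The others held 46 for UHRF1, 6 and 11 for TET1 and 3 for DNMT3B.

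DNMT1 (ENSG00000130816.14, 19:10133346-10194953) was the most abundant of the 7 RNAs in every RNA-seq library. Its level was highest in mock AD cells, at 45.5 ± 2.93 RPKM (SD, n = 2 here and for all group means), and lowest in siEZH2 AI cells, at 16.1 ± 1.29 RPKM. Mock AD and siEZH2 AD overlapped at the top of that order, and untreated AI and untreated AD overlapped in the middle. UHRF1 (ENSG00000276043.4, 19:4903080-4962154) ran between 1.76 and 6.25 RPKM, with all 6 AD libraries above all 6 AI libraries. DNMT3A (ENSG00000119772.16, 2:25227874-25342590) ran between 1.72 and 5.14 RPKM, and DNMT3B (ENSG00000088305.18, 20:32762385-32809356) between 0.58 and 2.31 RPKM. Of the erasers, TET3 (ENSG00000187605.15, 2:73983631-74135498) had 0.63 to 3.02 RPKM, TET2 (ENSG00000168769.12, 4:105145875-105279803) 0.07 to 0.82 RPKM and TET1 (ENSG00000138336.8, 10:68560337-68694487) 0.02 to 0.48 RPKM.

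Genes were tested if at least 2 libraries reached 0.5 RPKM, which left 14227 of the RNA-seq genes and 6 of the 7 genes described here. TET1 failed this filter, and TET2 passed it only through the untreated AI libraries, where it was highest. For TET1, all changes and p-values come from a fit without the filter, which was added after the data were seen. For a gene of 5000 bases, 1 read was worth about 0.00346 to 0.0265 RPKM, so the lowest TET1 and TET2 values rest on few reads. UHRF1 overlaps ARRDC5, TET2 overlaps TET2-AS1, and TET3 overlaps BOLA3 and FNBP1P1. Whether reads were counted by strand is not given in the sources used here, so reads from these neighbours may be included. DNMT3A and TET1 have annotated pseudogenes, DNMT3AP1 and TET1P1, which could take or give reads.

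**Figure D1:**
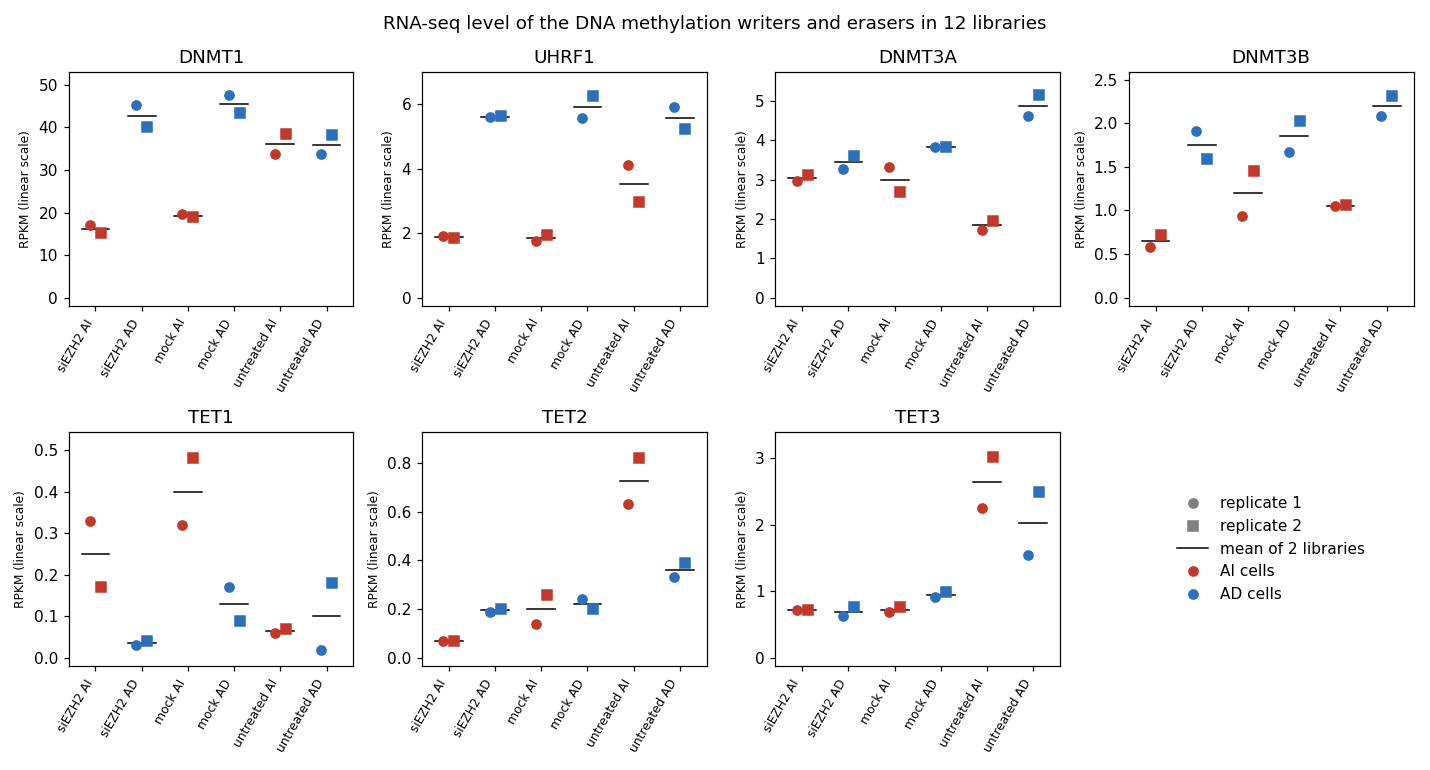
RNA level (RPKM, linear axis from 0) of the 7 genes in the 12 RNA-seq libraries, 1 panel a gene, with AI in red to the left of AD in blue within siEZH2, mock and untreated cells. Circles are replicate 1, squares replicate 2 and black lines group means; DNMT1 shows low points for mock and siEZH2 AI cells only, at 15.18 to 19.69 RPKM, and DNMT3A is lowest in untreated AI cells.

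In untreated cells, the de novo enzymes and UHRF1 were lower in AI than in AD cells, and DNMT1 stood at nearly the same level. DNMT3A had 1.72 and 1.96 RPKM in AI libraries, against 4.62 and 5.14 RPKM in AD libraries. DNMT3B had 1.05 and 1.06 RPKM in AI libraries, against 2.08 and 2.31 RPKM in AD libraries. UHRF1 had 4.11 and 2.95 RPKM in AI libraries, against 5.89 and 5.21 RPKM in AD libraries. For each of these genes both AI libraries lay below both AD libraries. The AI mean was 0.377 of the AD mean for DNMT3A, 0.481 for DNMT3B and 0.636 for UHRF1. On the log2(RPKM + 0.5) scale, which understates changes at low levels, DNMT3A fell by 1.2 (SE 0.138, limma adjusted p = 0.000219). DNMT3B fell by 0.79 (SE 0.184, limma adjusted p = 0.00902) and UHRF1 by 0.6 (SE 0.156, limma adjusted p = 0.0154). These were 3 of the 6 genes tested, all lower, where the test called 34.6% of all genes, 22.2% higher and 12.4% lower. The median change of all genes was 0.13. The DNMT3A call held in 12 of 12 alternative settings, with changes between -1.41 and -1.05, whereas the UHRF1 call was lost without AD replicate 1 (log2 change -0.52, adjusted p = 0.0818) or AI replicate 2 (-0.39, adjusted p = 0.0983). With only the untreated groups in the fit, adjusted p was 0.163 for UHRF1 and 0.0636 for DNMT3B. The neuroendocrine markers summed to 8.13 and 7.32 RPKM in untreated AI, against 40.1 and 32.7 RPKM in untreated AD libraries, with 2 of the 2 tested lower. The luminal markers summed to 3150 and 2610 RPKM in untreated AI, against 6930 and 5080 RPKM in untreated AD libraries, with 6 of 10 lower and 2 higher. The part of these markers in the results was not tested.

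DNMT1 had 33.69 and 38.58 RPKM in untreated AI libraries and 33.69 and 38.12 RPKM in untreated AD libraries. Its log2 difference was 0.01, with a 95% interval of -0.26 to 0.28. TET2 had 0.63 and 0.82 RPKM in AI and 0.33 and 0.39 RPKM in AD libraries, groups that did not overlap, with a log2 difference of 0.51 that is given without a test, since the gene entered the fit only through these AI libraries. TET3 had 2.25 and 3.02 RPKM in AI and 1.55 and 2.49 RPKM in AD libraries. These overlapped, and the interval of the log2 difference ran from -0.13 to 0.79. TET1 had 0.06 and 0.07 RPKM in AI and 0.02 and 0.18 RPKM in AD libraries, with the AI values inside the AD range.

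Among transfected cells DNMT1 and UHRF1 were lower in AI than in AD cells. DNMT3B passed as lower too, but its call depended on the setting, and DNMT3A did not pass. With mock siRNA, DNMT1 had 19.69 and 18.92 RPKM in AI libraries, against 47.52 and 43.38 RPKM in AD libraries. UHRF1 had 1.76 and 1.95 RPKM in mock AI libraries, against 5.56 and 6.25 RPKM in mock AD libraries. Neither pair of groups came near overlap, and the AI mean was 0.425 of the AD mean for DNMT1 and 0.314 for UHRF1. DNMT1 fell by 1.21 (SE 0.12, limma adjusted p = 2.78e-05) and UHRF1 by 1.44 (SE 0.156, limma adjusted p = 4.65e-05) on the log2 scale. Both calls held in 12 of 12 alternative settings, with DNMT1 between -1.37 and -0.77 and UHRF1 between -1.62 and -0.81. DNMT3B had 0.94 and 1.45 RPKM in mock AI and 1.67 and 2.03 RPKM in mock AD libraries (log2 change -0.48, SE 0.184, limma adjusted p = 0.0476). That DNMT3B call held in only 4 of 12 alternative settings, and quantile normalization turned the change to 0.18. The change also moved with single libraries. It was -0.59 without mock AD replicate 1, -0.37 without mock AD replicate 2 and -0.26 without mock AI replicate 1. So 3 of the 6 tested genes fell in mock AI against mock AD, where 55.7% of all genes were called, 12.2% higher and 43.5% lower. The median of all genes was shifted too, at -0.41, and quantile normalization or median scaling brought it to 0.02 and 0.04. Under quantile normalization DNMT1 was at -0.99 and UHRF1 at -0.81, and under median scaling at -0.77 and -1, and all 4 values passed.

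With siEZH2, DNMT1, UHRF1 and DNMT3B also fell in AI against AD cells, where 57.7% of all genes were called, 10.6% higher and 47.1% lower, and the median of all genes was -0.48. DNMT1 had 17 and 15.18 RPKM in siEZH2 AI libraries, against 45.28 and 40.2 RPKM in siEZH2 AD libraries. UHRF1 had 1.92 and 1.85 RPKM in AI, against 5.59 and 5.62 RPKM in AD libraries. DNMT3B had 0.58 and 0.72 RPKM in AI, against 1.91 and 1.59 RPKM in AD libraries. No AI library reached an AD library in any of the 3. The log2 changes were -1.38 for DNMT1 (limma adjusted p = 1.23e-05), -1.36 for UHRF1 (limma adjusted p = 6.61e-05) and -0.97 for DNMT3B (limma adjusted p = 0.0015). The DNMT3B call was lost under quantile normalization (-0.25, adjusted p = 0.284) and median scaling (-0.46, adjusted p = 0.0608).

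DNMT3A, lower in untreated AI cells, had 3.32 and 2.68 RPKM in mock AI, against 3.82 and 3.83 RPKM in mock AD libraries (log2 change -0.31, limma adjusted p = 0.0809). With siEZH2 it had 2.97 and 3.12 RPKM in AI, against 3.26 and 3.61 RPKM in AD libraries (log2 change -0.15, limma adjusted p = 0.38). The siEZH2 difference turned to 0.55 under quantile normalization (adjusted p = 0.00969), so its direction depended on the scaling. TET1, the eraser with the lowest level, ran the other way among transfected cells. It had 0.32 and 0.48 RPKM in mock AI, against 0.17 and 0.09 RPKM in mock AD libraries, and 0.33 and 0.17 RPKM in siEZH2 AI, against 0.03 and 0.04 RPKM in siEZH2 AD libraries. The log2 difference was 0.51 for mock (limma adjusted p = 0.0473) and 0.48 for siEZH2 (limma adjusted p = 0.0596), in the fit without the filter. TET2 had 0.14 and 0.26 RPKM in mock AI and 0.24 and 0.2 RPKM in mock AD libraries, which overlapped (limma adjusted p = 0.853). With siEZH2 it had 0.07 RPKM in both AI libraries, against 0.19 and 0.2 RPKM in AD libraries. Those groups did not overlap and the AI mean was 0.359 of the AD mean, but the log2 difference of -0.29 did not pass (limma adjusted p = 0.2, or 0.0487 with only those groups in the fit), and it was 0.32 under quantile normalization and 0.22 under median scaling. TET3 had 0.69 and 0.76 RPKM in mock AI and 0.91 and 0.99 RPKM in mock AD libraries, which did not overlap and did not pass (limma adjusted p = 0.339). With siEZH2, TET3 had 0.72 RPKM in both AI libraries, inside the range of the AD libraries at 0.63 and 0.76 RPKM.

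**Figure D2:**
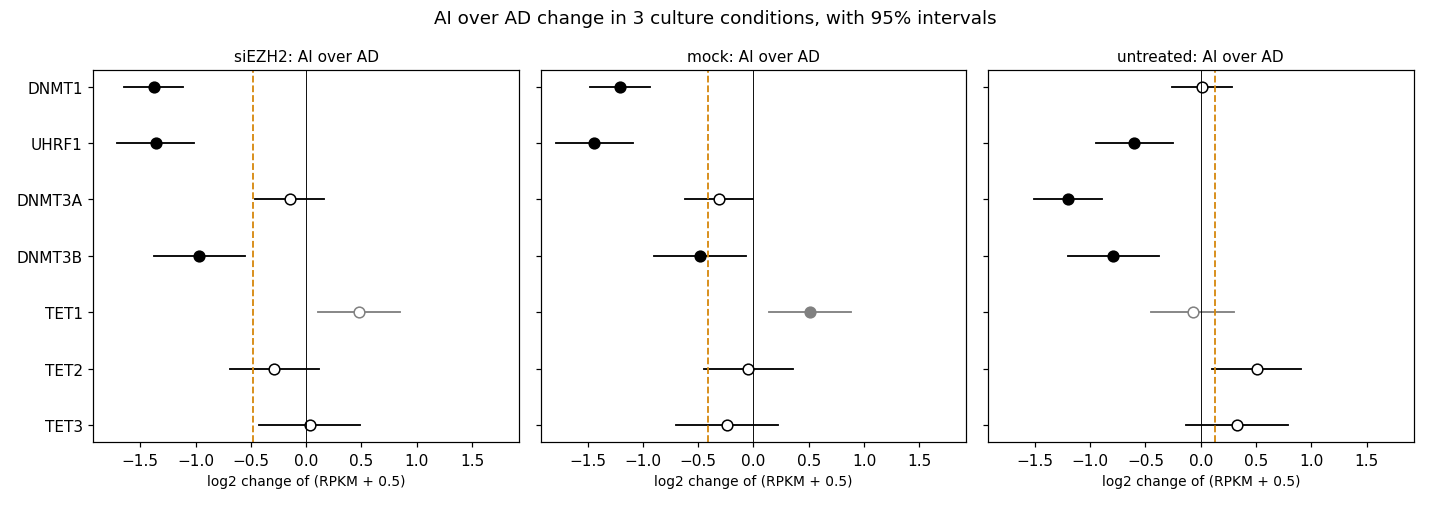
Change of AI over AD, in log2(RPKM + 0.5), for the 7 genes in siEZH2, mock and untreated cells. Points are fitted changes with 95% intervals, filled where the limma adjusted p is at most 0.05, grey for TET1 (fit without the filter), and the dashed orange line is the median of all genes; DNMT1 lies at -1.38 in siEZH2, -1.21 in mock and 0.01 in untreated cells, and DNMT3A at -1.2 in untreated cells.

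The AI against AD difference itself was not the same in mock as in untreated libraries for 3 of the 6 genes that passed the filter. That count is near the share of all genes called, 50.2%, and is not particular to these genes. Transfection cannot be told apart here from the library differences in depth and mitochondrial share. The test was the mock difference minus the untreated difference, in the same fit over all 12 libraries, and it called 50.2% of all genes, 8.99% with a higher and 41.2% with a lower value, with a median of -0.54. DNMT1 had a difference of -1.22 (SE 0.17, limma adjusted p = 0.000335) and UHRF1 of -0.84 (SE 0.22, limma adjusted p = 0.0103). DNMT3A went the other way, at 0.89 (SE 0.195, limma adjusted p = 0.00424). The DNMT1 and DNMT3A calls held in 16 of 16 alternative settings, and the UHRF1 call did not: under quantile normalization it was 0.01 (adjusted p = 0.975) and under median scaling -0.26 (adjusted p = 0.328). DNMT3B at 0.31 and TET3 at -0.57 missed the threshold, with limma adjusted p of 0.355 and 0.128, and TET2 was at -0.55, given without a test. DNMT3B passed under quantile normalization (1.04, adjusted p = 0.0113) and median scaling (0.89, adjusted p = 0.0213), and TET3 without untreated AD replicate 2 (-0.85, adjusted p = 0.0295). EZH2 itself had a difference of -1.72 (limma adjusted p = 0.000513) in this test.

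Mock cells were also set against untreated cells of the same form, in comparisons that share their libraries with those above. In AI cells, 4 of the 5 genes other than TET2 and TET1 differed between mock and untreated, where the test called 57.1% of all genes, 21.5% higher and 35.5% lower, and the median was -0.2. DNMT1 fell by 0.88 (limma adjusted p = 0.000188) and UHRF1 by 0.76 (limma adjusted p = 0.00227), to 19.3 and 1.85 RPKM in mock AI cells, against 36.1 and 3.53 RPKM in untreated AI cells. DNMT3A rose by 0.58 (limma adjusted p = 0.00541), to 3 RPKM in mock AI cells, against 1.84 RPKM in untreated AI cells. The eraser TET3 fell by 1.35 (limma adjusted p = 0.000377), and its mock AI mean was 0.275 of the untreated AI mean. TET2 had 0.14 and 0.26 RPKM in mock AI, against 0.63 and 0.82 RPKM in untreated AI libraries, and is not counted here because only its untreated AI values took it past the filter. The DNMT1 and TET3 calls held in 12 of 12 alternative settings. UHRF1 lost its call under quantile normalization (-0.32, adjusted p = 0.0956), and DNMT3A lost its call without mock AI replicate 1 (0.44, adjusted p = 0.0518) and when scaled without mitochondrially encoded genes (0.24, adjusted p = 0.251).

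In AD cells, 2 of the 6 tested genes differed between mock and untreated, where the test called 45.4% of all genes, 37.6% higher and 7.73% lower, and the median was 0.35. TET3 had 0.91 and 0.99 RPKM in mock AD libraries, against 1.55 and 2.49 RPKM in untreated AD libraries, and fell by 0.77 (SE 0.205, limma adjusted p = 0.0125). Its call was lost without untreated AD replicate 2 (-0.5, adjusted p = 0.0893) or mock AD replicate 1 (-0.73, adjusted p = 0.0625), and it passed under the 3 other scalings, at -1.13 to -0.96. DNMT1 passed at 0.34 (SE 0.12, limma adjusted p = 0.0449), close to the median of all genes, and its direction flipped under quantile normalization (-0.12, adjusted p = 0.533) and median scaling (-0.02, adjusted p = 0.921). That call was also lost without untreated AD replicate 1 (0.25, adjusted p = 0.186), mock AD replicate 1 (0.27, adjusted p = 0.204) or mock AD replicate 2 (0.4, adjusted p = 0.0767). UHRF1 (0.08), DNMT3A (-0.31), DNMT3B (-0.2) and TET2 (-0.26) did not pass, the last 3 with both mock libraries below both untreated ones. These 3 depended on the scaling: DNMT3A passed under quantile normalization (-0.75, adjusted p = 0.00282), under median scaling (-0.67, adjusted p = 0.00614) and when scaled without mitochondrially encoded genes (-0.52, adjusted p = 0.0344). DNMT3B passed under quantile normalization (-0.53, adjusted p = 0.0463) and median scaling (-0.56, adjusted p = 0.0405), and TET2 under median scaling (-0.61, adjusted p = 0.0311). TET1 had 0.32 and 0.48 RPKM in mock AI and 0.06 and 0.07 RPKM in untreated AI libraries, a log2 difference of 0.67 (limma adjusted p = 0.015, fit without the filter), and 0.08 in AD cells.

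**Figure D3:**
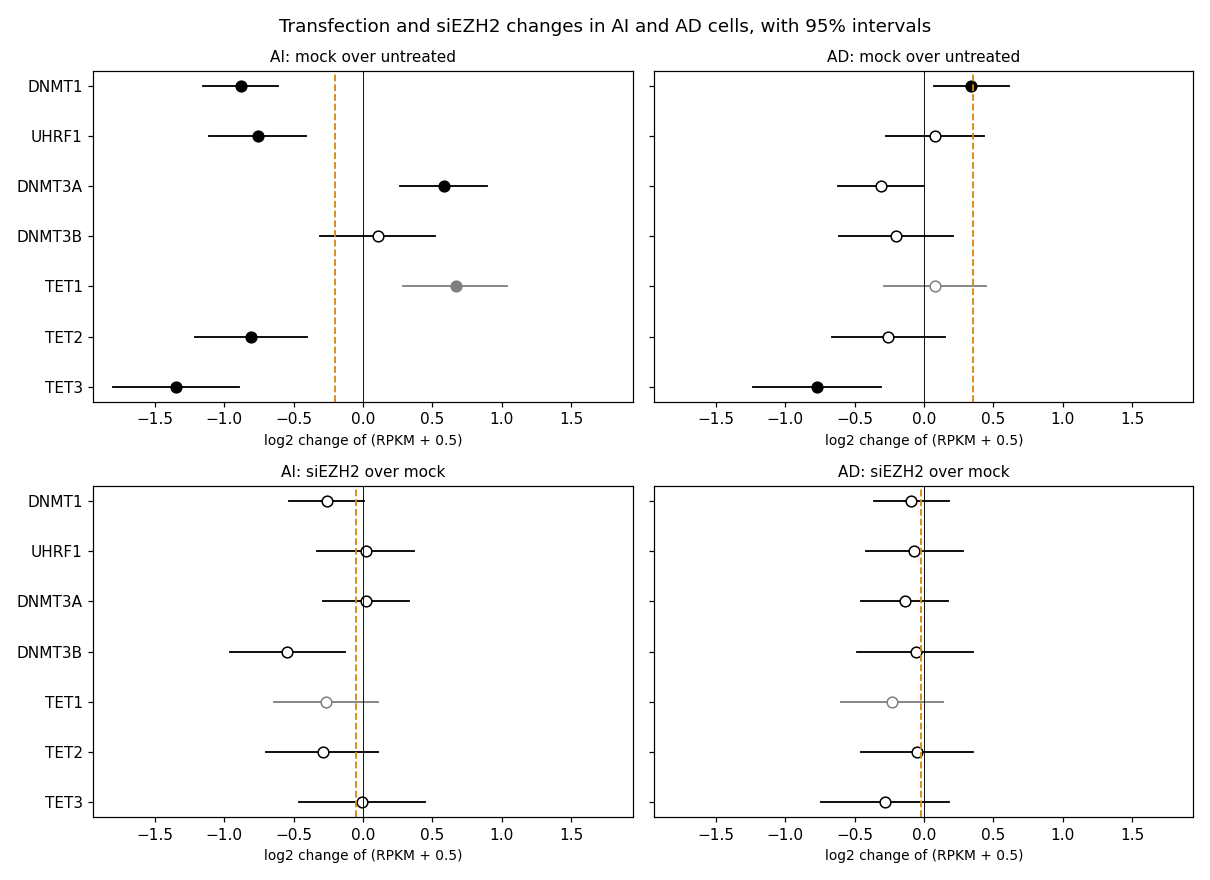
Change of mock over untreated (top) and of siEZH2 over mock (bottom) in AI cells (left) and AD cells (right), in log2(RPKM + 0.5), with 95% intervals. Filled points have a limma adjusted p of at most 0.05, grey marks TET1 (fit without the filter) and the dashed orange line is the median of all genes; the siEZH2 panels hold no filled point, TET3 lies below 0 in both mock panels, and the TET2 point of mock over untreated AI is not counted, since only its untreated AI values passed the filter.

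None of the 6 tested genes passed for siEZH2 against mock siRNA in either form. In AI cells limma called 1.46% of all genes (0.0703% higher, 1.39% lower) at an adjusted p of 0.05, and 2675 genes had an unadjusted p under 0.05. Without any 1 of the 4 libraries, or with only those groups in the fit, it called 0 genes. DNMT3B had 0.58 and 0.72 RPKM in siEZH2 AI libraries, against 0.94 and 1.45 RPKM in mock AI libraries. The groups did not overlap, the siEZH2 mean was 0.544 of the mock mean, and DNMT3B was the only 1 of the 6 tested genes with an unadjusted p under 0.05 (log2 change -0.55, 95% interval -0.96 to -0.13, limma adjusted p = 0.155). DNMT1 had 17 and 15.18 RPKM in siEZH2 AI libraries, against 19.69 and 18.92 RPKM in mock AI libraries, which did not overlap either (log2 change -0.26, interval -0.53 to 0.01, limma adjusted p = 0.289). TET2 was 0.07 RPKM in both siEZH2 AI libraries, against 0.14 and 0.26 RPKM in mock AI libraries (limma adjusted p = 0.43). UHRF1, DNMT3A and TET3 had log2 differences of 0.02, 0.02 and -0.01. In AD cells the test called 0.0141% of all genes, 2 in number, with 544 at an unadjusted p under 0.05. The log2 changes of the 6 tested genes lay between -0.28 for TET3 and -0.05 for TET2 there, and their limma adjusted p was 1. The difference of the siEZH2 effect, AI minus AD, called 0.00% of all genes and none of the 6 (976 genes had an unadjusted p under 0.05), and for DNMT3B it was -0.48 with an interval of -1.07 to 0.1.

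DNMT1 and UHRF1 had the most similar profiles among the 21 pairs of these genes. Over the 12 RNA-seq libraries, Pearson's r on log2(RPKM + 0.5) was 0.91 for that pair, 0.9 for TET2 and TET3, and 0.83 for UHRF1 and DNMT3B. TET1 ran against the maintenance genes, with r of -0.71 to DNMT1 and -0.75 to UHRF1. DNMT3A and TET2 had r of -0.45. These are descriptions over libraries that share 6 groups, depth and transfection, and carry no test. Of 10944 genes with a symbol and a mean of at least 1 RPKM, the nearest to DNMT1 were HS2ST1 (0.989), PRKD1 (0.987) and TCFL5 (0.986), and the nearest to UHRF1 were PDZRN3 (0.99), ZNF740 (0.988) and AHNAK2 (0.988). DNMT3A was nearest to PHF21A (0.962), DNMT3B to LONRF1 (0.937), TET1 to ZNF449 (0.941), TET2 to CTSL (0.985) and TET3 to EPC1 and SNX19 (both 0.981).

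In the EZH2 RIP, RNA of the DNA methyltransferases was higher than in the IgG control in every library, though no gene passed the test. The median log2 difference of all genes was positive too, at 0.88 in AI and 0.43 in AD cells. The share of all genes with such a separation was not counted, so it cannot be called particular to these genes. DNMT1 had 49.24 and 23.24 RPKM in EZH2 AI libraries, against 8.37 and 9 RPKM in IgG AI libraries. In AD cells DNMT1 had 56.73 and 27.27 RPKM with EZH2 antibody, against 9.37 and 10.58 RPKM with IgG. All 4 EZH2 libraries lay above all 4 IgG libraries, but in both forms the 2 EZH2 replicates lay farther apart in RPKM than replicate 2 lay above IgG. DNMT3B had 5.04 and 8.82 RPKM with EZH2 antibody in AI, against 1.76 and 0 RPKM with IgG. In AD cells DNMT3B had 7.29 and 9.83 RPKM with EZH2 antibody, against 0.58 and 2.45 RPKM with IgG, so that its 4 EZH2 libraries too lay above its 4 IgG libraries. DNMT3A had 7.13 and 9.93 RPKM with EZH2 antibody in AI, against 0.76 and 4.58 RPKM with IgG, and 7.6 and 10.83 RPKM in AD, against 1.75 and 4.77 RPKM. UHRF1 had 2.18 and 2.7 RPKM in AI, against 0.63 and 0 RPKM with IgG, and 2.86 and 6.53 RPKM in AD, against 2.09 and 2.2 RPKM.

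The erasers TET2 and TET3 were closer to the IgG level, and overlapped it in AD cells. TET1 had 1.25 and 1.45 RPKM with EZH2 antibody in AI, against 0.7 and 0 RPKM with IgG, and 2.84 and 2.34 RPKM in AD, against 0.87 and 1.34 RPKM. TET2 had 4.28 and 7.37 RPKM with EZH2 antibody in AI, against 2.49 and 3.9 RPKM with IgG, and 2.65 and 3.04 RPKM in AD, against 2.91 and 1.95 RPKM, where the groups overlapped. TET3 had 6.83 and 15.44 RPKM with EZH2 antibody in AI, against 5.11 and 4.28 RPKM with IgG, and 4.05 and 8.25 RPKM in AD, against 2.81 and 4.51 RPKM, which also overlapped. TET1 stood higher in the ranking of all genes in the EZH2 RIP of AD cells (above 78.5% and 70.4% of genes) than in any RNA-seq library (above 33.8% to 59.3%), but the IgG libraries of AD cells placed it above 66.9% and 61.9% of genes too.

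The test of EZH2 against IgG called 0.00% of 13667 genes in both forms by limma, and all 7 genes described here passed the filter on low values. At an unadjusted p under 0.05 there were 2930 genes in AI and 1383 in AD. That count depended on the model: with a replicate block, limma called 1338 genes in AI and 483 in AD. Of the 7 genes it called only DNMT1, in AI (limma adjusted p = 0.0347), and same-numbered libraries were not taken as pairs. In AI cells the log2 difference was 1.9 for DNMT1 (95% interval 0.58 to 3.23, limma adjusted p = 0.134), 2.76 for DNMT3B (0.69 to 4.83, limma adjusted p = 0.148), 1.96 for UHRF1 (0.14 to 3.78, limma adjusted p = 0.208) and 1.82 for DNMT3A (-0.03 to 3.67, limma adjusted p = 0.238). In AD cells it was 1.93 for DNMT1 (0.6 to 3.26, limma adjusted p = 0.357), 2.33 for DNMT3B (0.26 to 4.4, limma adjusted p = 0.444), 1.48 for DNMT3A (limma adjusted p = 0.583) and 0.88 for UHRF1 (limma adjusted p = 0.778). The erasers had 0.76 to 1.25 in AI and 0.21 to 0.96 in AD cells. The median of all genes was 0.88 in AI and 0.43 in AD, so all of the 7 but TET2 (0.76 and 0.21) were above it in both forms. Scaling by the median put DNMT1 at 0.96 in AI and 1.46 in AD. The EZH2 libraries held an estimated 4.61 to 8.14 M reads, against 0.0814 to 1.85 M in IgG libraries, and 1 read on a gene of 5000 bases was worth 2.46 RPKM in IgG AI replicate 2, the library where UHRF1, DNMT3B and TET1 were listed at 0. Mitochondrially encoded transcripts took 2.4% to 5.85% of the RPKM in EZH2 and 9.26% to 37.79% in IgG libraries, and the part of this difference in the result was not tested beyond a scaling without those genes, which left DNMT1 at 1.21 in AI and 1.34 in AD.

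Between the forms, the EZH2 RIP values themselves overlapped for DNMT1, DNMT3A and DNMT3B. The log2 differences of AI minus AD were -0.21 for DNMT1, -0.73 for UHRF1, -0.1 for DNMT3A, -0.32 for DNMT3B, -0.74 for TET1, 0.88 for TET2 and 0.78 for TET3. None passed (limma adjusted p = 1 for each), 0.00% of all genes were called and 233 had an unadjusted p under 0.05. The test of the EZH2 over IgG difference between AI and AD, added after the data were seen, also called 0.00% of genes, with 436 at an unadjusted p under 0.05, and gave -0.03 for DNMT1 and 0.43 for DNMT3B.

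**Figure D4:**
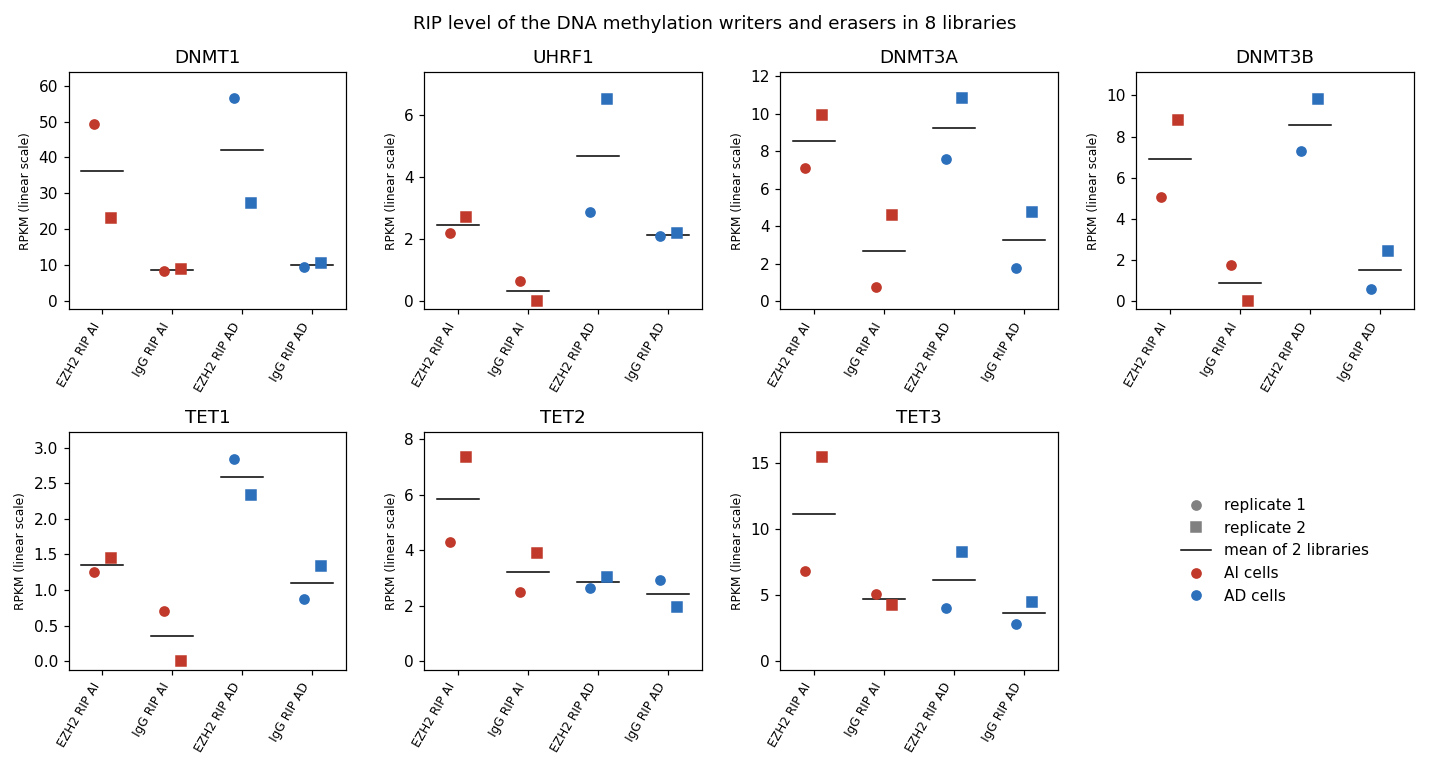
RIP level (RPKM, linear axis from 0) of the 7 genes with EZH2 antibody and with IgG, in AI (red) and AD cells (blue). Circles are replicate 1, squares replicate 2 and black lines group means; the DNMT1 panel shows the 4 EZH2 libraries at 23.24 to 56.73 RPKM, above the 4 IgG libraries at 8.37 to 10.58 RPKM.

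No deposited list of EZH2 or H3K27me3 peaks had more than 1 of the 7 genes with a peak at its start. Such counts are too small to set apart from the shares of all genes given beside them. A peak was counted where it came within 2500 bases of a RefSeq start. For EZH2, TET1 had such a peak in the AI list, where 3.44% of 27305 genes did, and DNMT1 had a peak in the list of AD replicate 1, where 18% did. None of the 7 had a peak in the list of AD replicate 2, where 5.15% of genes did. For H3K27me3, TET1 had a peak in the list of AI replicate 2, where 18.5% of genes did, and none of the 7 had a peak in the lists of AI replicate 1 (12.5% of genes), AD replicate 1 (14.5%) or AD replicate 2 (14.9%). The lists were called per sample and differed in length, with 11933 peaks for EZH2 in AI and 53911 and 12399 in AD, so presence in a list also moves with how much was called.

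At TET1, the H3K27me3 peak of AI replicate 2 lay at chr10:68559760-68562447 and spanned the whole printed promoter. It was 2688 bases wide, and its score, the authors' own value, was 630.97. The EZH2 peak of the AI list, at chr10:68561096-68561599, began 759 bases after the start and had a score of 54.96, close to the lowest score of 50 in that list. At DNMT1, the EZH2 peak of AD replicate 1 lay at chr19:10195873-10196420, which is -920 bases from the start, upstream of it, and outside the printed promoter, with a score of 71.8. Over the gene body and 2500 bases on either side, DNMT1 held the most EZH2 peaks, with 3 in the AI list, 11 in AD replicate 1 and 3 in AD replicate 2. None of those AI peaks overlapped an AD peak, and their scores were 54.08 to 80.44. Some peaks of the AD replicates overlapped each other near the 3' end of the gene. DNMT3A held 8, TET1 6, UHRF1 4 and DNMT3B 2 in AD replicate 1, and none of these 4 held one in AD replicate 2. TET1 and TET3 held 1 each in the AI list. By gene, 3 of the 7 had such an EZH2 peak in the AI list, where 17.9% of all genes did. It was 5 in AD replicate 1, where 43.9% did, and 1 in AD replicate 2, where 19.1% did. For H3K27me3 over gene bodies, AI replicate 1 had a peak at 1 of the 7 genes, where 24.5% of all genes did, and AI replicate 2 at 2, where 27.7% did, against none in AD replicates 1 and 2, where 24.7% and 24.6% did. They lay at TET1, as above, and inside TET2, where both AI lists had a peak (chr4:105194737-105195899 with a score of 57.47 and chr4:105193507-105196718 with a score of 249.85). With 2 lists a group, or 1, no test of AI against AD was made.

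**Figure D5:**
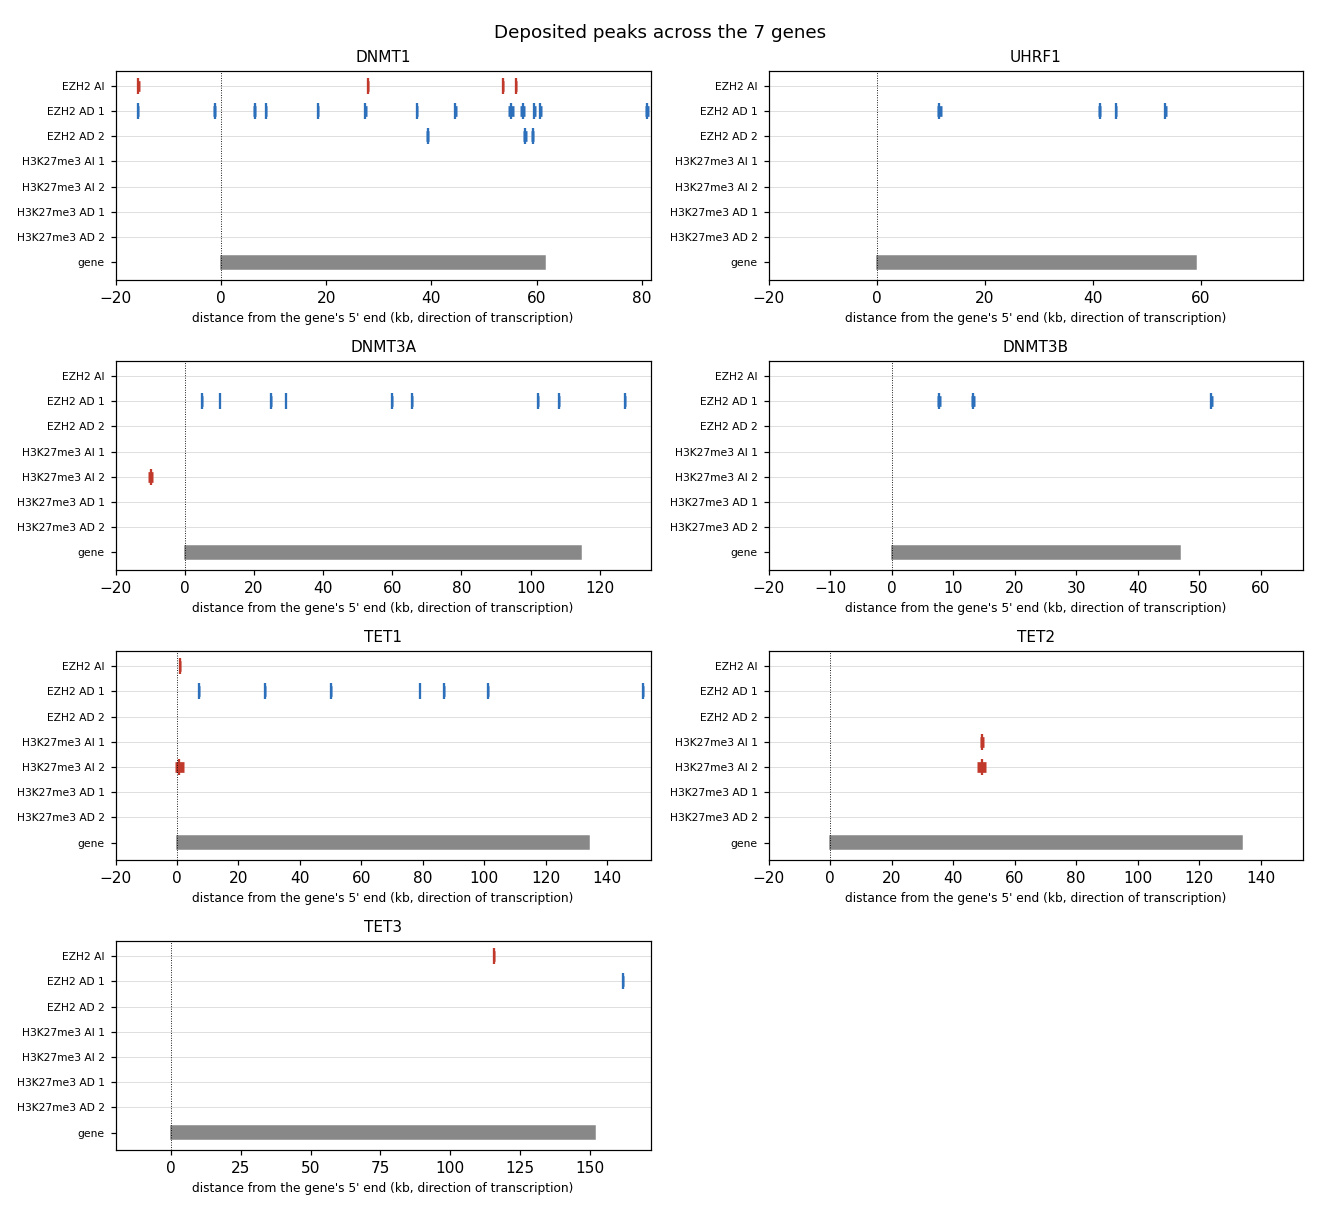
Deposited peaks across each of the 7 genes, by distance from the 5' end of the gene in kilobases (direction of transcription), with AI lists in red and AD lists in blue and the gene as a grey bar. DNMT1 carries EZH2 peaks in all 3 EZH2 lists, but inside the gene no AI peak overlaps an AD peak. H3K27me3 marks are drawn only in AI lists, at TET1, inside TET2 and, in AI replicate 2, ahead of DNMT3A.

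Other genes linked to methylation were described from lists chosen with earlier results of these data known. In untreated AI against AD cells, 6 of 15 tested partners of maintenance methylation rose and 1 fell, with a median of 0.13, as for all genes, and 3 rose and 1 fell under quantile normalization. PCNA, the replication clamp that also recruits DNMT1, rose by 1.04 and its binding protein PCLAF by 0.91. Of 9 genes in the list of readers of methylated DNA, 1 fell: MBD3, which is listed by family and not as a reader. It had 25.45 and 29.61 RPKM in untreated AI, against 47.79 and 57.83 RPKM in untreated AD libraries (log2 change -0.92). Of 17 genes of oxidised base removal and TET partners, 1 rose and 2 fell. IDH1, which makes the 2-oxoglutarate that TET enzymes use, had 123.68 and 115.66 RPKM in untreated AI, against 26.53 and 31.37 RPKM in untreated AD libraries (log2 change 2.03, limma adjusted p = 7.26e-06). Of 16 methyl donor cycle genes, 6 rose and 1 fell. Of 2 other genes of the cytosine-5 methyltransferase family, listed by family and not as enzymes of DNA, TRDMT1 rose by 0.72. Neither of the 2 passed under quantile normalization.

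In mock AI against AD cells, 2 of the 15 maintenance partners rose and 9 fell, with a median of -0.52 beside -0.41 for all genes, and 2 rose and 5 fell under quantile normalization. PCNA had 31.5 and 35.49 RPKM in mock AI, against 85.5 and 98.87 RPKM in mock AD libraries, a log2 change of -1.45. Of the 9 genes in the reader list, 3 rose and 4 fell (4 and 3 under quantile normalization), and MBD3 was lower again, at -1.32. Of the 17 oxidised base removal genes, 3 rose and 6 fell, but 7 rose and 4 fell under quantile normalization. GADD45B, a stress-induced gene linked to demethylation, had 437.77 and 450 RPKM in mock AI, against 49.35 and 53.06 RPKM in mock AD libraries (log2 change 3.1), while TDG, the glycosylase that cuts out oxidised methylcytosine, fell by 1.33. Of the 16 methyl donor cycle genes, 5 rose and 8 fell. MAT2A, which makes the methyl donor S-adenosylmethionine, had 1.93 and 1.96 RPKM in mock AI, against 17.48 and 20.63 RPKM in mock AD libraries (log2 change -2.99, limma adjusted p = 2.1e-06), and had 45.88 and 34.96 RPKM in untreated AI and 51.89 and 44.21 RPKM in untreated AD libraries. NSUN2 fell by 2.9, the only call among the 2 other genes of the cytosine-5 methyltransferase family, which are not listed as enzymes of DNA.

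S phase genes, a list that shares PCNA with the maintenance partners and TYMS with the methyl donor cycle, moved in the direction of DNMT1 and UHRF1 among transfected cells and not among untreated cells. In untreated AI against AD cells, 10 of 20 tested S phase genes rose and 0 fell, where limma put DNMT1 at 0.01 and UHRF1 at -0.6. In mock AI against AD cells, 2 rose and 14 fell, with a median of -0.72, and in siEZH2 AI against AD cells 1 rose and 15 fell, with a median of -0.95. Under quantile normalization 2 rose and 11 fell in mock cells, with a median of -0.45 beside 0.02 for all genes, and 9 rose and 2 fell in untreated cells. The summed level of the list was 411 and 424 RPKM in siEZH2 AI libraries and 742 and 769 RPKM in siEZH2 AD libraries. It was 461 and 459 RPKM in mock AI and 710 and 738 RPKM in mock AD libraries, and 667 and 612 RPKM in untreated AI and 475 and 449 RPKM in untreated AD libraries. Whether this difference in S phase genes bears on DNMT1 and UHRF1 was not tested, and in bulk samples fewer cells in a state and less RNA per cell cannot be told apart.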

How the data were processed

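RNA-seq was deposited for 12 libraries and RIP for 8, and the authors deposited RPKM values with 2 decimals for both. Per the submitters' processing notes, both kinds of library involved TopHat2 and edgeR, with cutadapt for RNA-seq, and ChIP involved cutadapt and Bowtie2, all on GRCh38. The sources used here do not give versions, the annotation, the counting tool or its strand setting. The RNA-seq libraries were made with a directional kit, per the labels' protocols. Each deposited peak list came from 1 ChIP sample and gives a score per peak, which was at least 50 in every list. RPKM holds no read totals. Depth was estimated from short noncoding RNAs whose low values are whole multiples of 1 read (tolerance 1.5%), and is approximate.

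Changes were fitted with limma 3.58.1 (R 4.3.3), limma-trend on log2(RPKM + 0.5), with a mean for each group, fitted over the 12 RNA-seq or the 8 RIP libraries together. Genes needed 0.5 RPKM in at least 2 libraries, tests were two-sided, and p-values were adjusted by Benjamini-Hochberg over all genes tested, with calls at 0.05. The procedure was tested on simulated data. Alternatives were other pseudocounts, no filter, quantile normalization, median scaling, scaling without mitochondrially encoded genes, fits of the compared groups alone, a replicate block and leaving out each library. Peaks were counted within 2500 bases of RefSeq starts (GRCh38.p14), whose promoter sequences are shown. The genes described and the gene lists were chosen with earlier results of these data known. Named genes were the 7 genes and EZH2, the 3 genes nearest in profile to each, and up to 4 called genes with the largest changes from each list. Tables were handled in Python 3.11.15. The ChIP inputs were not analysed here.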

Additional observations from a re-analysis of the deposited data

Results flagged for a closer look

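The difference between AI and AD cells was not the same in mock as in untreated libraries for 3 of these genes. The test was the mock difference minus the untreated difference (limma over all 12 RNA-seq libraries). It called 50.2% of all genes, so such a difference was not particular to these genes. Transfection cannot be told apart here from the other differences between these libraries. DNMT1 had a value of -1.22 on the log2 scale, with 19.3 RPKM in mock AI and 45.5 RPKM in mock AD cells, and 36.1 and 35.9 RPKM in untreated AI and untreated AD cells. UHRF1 had a value of -0.84, with 1.85 RPKM in mock AI and 5.9 RPKM in mock AD cells, and 3.53 and 5.55 RPKM in untreated AI and untreated AD cells, and its call was lost under quantile normalization (0.01, adjusted p = 0.975) and median scaling (-0.26, adjusted p = 0.328). DNMT3A had a value of 0.89, with 3 RPKM in mock AI and 3.83 RPKM in mock AD cells, and 1.84 and 4.88 RPKM in untreated AI and untreated AD cells. Each group held 2 libraries, and a group of 2 is too small for a check of single libraries that stand apart.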

How the results depend on the processing

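Over all alternatives, the count of the 7 genes called stayed within 1.5 times the reported one in 158 of 168 cases, and 947 of 1060 single-gene values kept their direction and side of the threshold. The counts that moved, the reversals and the values without 1 library follow. For untreated AI against AD, 1 gene was called with only those groups in the fit, against 3 in the main fit and 1 to 4 over the settings. All-gene calls numbered 1106 with only those groups, against 4922 in the main fit. For mock against untreated AD, the count was 2 in the main fit, 1 without the filter, 4 under median scaling and 0 with only those groups. It also moved when 1 library was left out. Reversals occurred under quantile normalization for DNMT3B (0.18) and TET2 (0.53) in mock AI against AD, DNMT3A in siEZH2 AI against AD (0.55), DNMT1 in mock against untreated AD (-0.12, and -0.02 under median scaling) and UHRF1 in the difference of differences (0.01). The cause was not tested. For EZH2 peaks, AI had 3 genes over gene bodies (17.9% of all genes did) and 0 at a score of 100 or more (0.0623%), with 1 otherwise. AD replicate 1 had 4 within 5000 bases (26.9%), 5 over gene bodies (43.9%) and 0 at a score of 100 or more (3.37%), with 1 otherwise, and AD replicate 2 had 1 over gene bodies (19.1%), with 0 otherwise. For H3K27me3 peaks over gene bodies, AI replicate 1 had 1 (24.5%), with 0 otherwise, and AI replicate 2 had 2 (27.7%), with 1 otherwise.

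Called genes split differently by scaling. The share called higher was 64.2% for untreated AI against AD, 21.9% for mock AI against AD and 18.4% for siEZH2 AI against AD, and under quantile normalization 50.5%, 49.4% and 49%. It was 83% for mock against untreated AD, 37.7% for mock against untreated AI and 17.9% for the difference of differences, and under quantile normalization 51.5%, 49.4% and 47.4%. For siEZH2 against mock AI, 208 genes were called, and 11 under quantile normalization, 59 when scaled without mitochondrially encoded genes, and 0 under median scaling, with only those groups in the fit or without any 1 of the 4 libraries.

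The replicate block changed no RNA-seq count of the 7 genes. In the RIP of AI cells it called 1 of them (DNMT1, 1.9, adjusted p = 0.0347), and 1338 genes in all, against 0 without it. In AD cells it called 483 genes in all, and none of the 7. For siEZH2 against mock AI it called 371 genes against 208. Deviations of same-numbered libraries correlated at 0.71 between EZH2 RIP of AI and AD cells, 0.7 between untreated AI and AD cells, 0.24 and 0.33 between EZH2 and IgG in AI and AD cells, and 0.01 between siEZH2 AI and AD cells, over 2 numbers only, so the numbers were not taken as pairs. Leaving out 1 RIP library gave 0 to 1 of the 7 genes in AI cells: DNMT3B at 3.85 (adjusted p = 0.0471) without IgG replicate 1, where 701 genes were called. The IgG depth, down to an estimated 0.0814 M reads, limits the RIP comparisons.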

Other observations

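DNA methylation was not measured in these samples, so the genes whose promoters are known to be methylated were described by their RNA. Of 20 germline genes with methylation-dependent promoters 9 were tested, and in untreated AI against AD cells 2 rose and 1 fell, with a median of 0.32 beside 0.13 for all genes. MAGEA1 had 15.55 and 14.43 RPKM in untreated AI, against 0.74 and 1.09 RPKM in untreated AD libraries (log2 change 3.46, limma adjusted p = 6.02e-07), and 14.95 and 17.81 RPKM in mock AI, against 16.49 and 18.06 RPKM in mock AD libraries. BRDT had 1.31 and 1.21 RPKM in untreated AI, against 0.07 and 0.11 RPKM in untreated AD libraries. MAGEC2 was listed at 0 in both untreated AI libraries, against 2.28 and 1.46 RPKM in untreated AD libraries. In mock AI against AD cells 2 of the 9 rose and 2 fell, with a median of -0.08 beside -0.41, while 3 rose and 0 fell under quantile normalization.

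Of 16 genes reported with promoter methylation in prostate cancer 6 were tested. In untreated AI against AD cells SFN alone passed, with 3.11 and 2.22 RPKM in untreated AI, against 0.52 and 0.58 RPKM in untreated AD libraries. In mock AI against AD cells RASSF1 and RARB rose and SFN fell. RASSF1, a tumour suppressor, had 74.42 and 73.81 RPKM in mock AI, against 26.12 and 23.83 RPKM in mock AD libraries (log2 change 1.55, limma adjusted p = 4.72e-06), and SFN had 1.69 and 1.78 RPKM, against 11.87 and 10.72 RPKM. Neither list had a call for siEZH2 against mock siRNA in AI or AD cells by limma.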
